A study of Mus musculus with 3 samples.

Results

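The mitochondrial ribosomal proteins were examined on 3 arrays of mouse blastocyst RNA. A gene was taken as a member when the RefSeq transcript named for a non-control probe belonged to a gene with a symbol beginning Mrpl or Mrps and a number. The rule found 104 probes for 78 genes, out of 56591 probes with a value on all 3 arrays, 33754 probes with a gene name and 23454 named genes. All 78 protein-coding genes with such a symbol in the gene table had a probe. The table also listed 6 pseudogenes of the family, and 0 of them had a probe of their own. Of the 78 genes, 51 encode proteins of the large subunit, 26 encode proteins of the small subunit, and Mrps36 is counted apart because its product is now known as a part of the oxoglutarate dehydrogenase complex.

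Each array held RNA from 1 pool of 30 blastocysts. The young array came from superovulated and mated ICR females of 3 to 6 weeks of age, and the aging array from ICR females of 43 to 53 weeks treated in the same way. The suppressed aging array came from females of 43 to 53 weeks whose embryos were cultured with an anti-CXCL5 neutralizing antibody at 10 μg/ml and a CXCR2 selective antagonist at 10 nM, 2 agents that block the chemokine CXCL5 and its receptor and were given together. All zygotes were flushed from the oviducts 18 h after hCG and grown for 96 h in 30 μl drops of KSOM, an embryo culture medium. No replicate arrays were made, so no value has an error between embryos, no test was possible, and the differences below describe 3 pools rather than 3 conditions.

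Mitochondria keep a ribosome of their own, which translates the few proteins encoded by mitochondrial DNA, all of them subunits of the respiratory chain and the ATP synthase. Its RNA is made inside the organelle, but every one of its proteins is encoded in the nucleus, made in the cytosol and imported. Many of these proteins have a counterpart in bacterial ribosomes, and the others are specific to mitochondria. In the blastocyst, mitochondria inherited from the oocyte are partitioned among the cells, and the trophectoderm is known for its active respiration.

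Levels are given as the log2 processed signal minus the 75th percentile of the same array. That percentile stood at a signal of 145 in young, 155 in aging and 122 in suppressed aging blastocysts. A level of 0 is therefore a signal brighter than 75% of the probes of that array. Signals of different probes depend on the probe, so levels are compared only for the same probe between arrays. Markers of trophectoderm (6 of 6), inner cell mass (4 of 4) and primitive endoderm (4 of 4) were well above background on all 3 arrays. Of 6 maternal oocyte markers, 3 were above background in young, 4 in aging and 3 in suppressed aging blastocysts. Of 6 cumulus and granulosa cell markers, Foxl2, Amh and Cyp19a1 were above background on all 3 arrays, whereas Has2, Ptx3 and Fshr were not on any. Foxl2 was at 8.66 in young, 8.54 in aging and 8.77 in suppressed aging blastocysts.

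Before the values, the promoter sequences of the family are shown, because the genes are transcribed separately across the genome and a shared sequence is what a promoter comparison can add. Windows of 300 bases, from 250 before to 50 after each gene's start, were taken from RefSeq (GRCm38.p6) and matched to 69 of the 78 genes, with 75 windows in all. Windows for Mrpl4, Mrpl13, Mrpl15, Mrpl19, Mrpl38, Mrpl54, Mrps28, Mrps34 and Mrps35 were not analysed here. The letters searched on both strands were GCGCA followed by any base and GCGC for NRF1, a nuclear activator of genes for mitochondrial proteins, CCGGAAG for the ETS family, which includes the activator GABP, and AANATGGCG for YY1. None of these letter strings contains another, and in Mrps26 a pair of NRF1 matches overlapped.

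NRF1 letters were found in 13 of 75 windows of the family (17.3%), against 4.60% of all 32851 windows and 8.82% of 13822 windows of other genes above background on all 3 arrays. ETS letters were found in 26 windows (34.7%), against 8.86% and 15.7%. YY1 letters were found in 11 windows (14.7%), against 2.38% and 4.49%. At least 1 of the 3 was present in 42 of the 75 windows (56%), which belong to 42 genes, whereas 14.2% of all windows and 25.7% of the windows of other genes above background held one. GGGCGG, the Sp1 motif, was found in 52% of the windows of the family and 57.1% of those of other genes above background, CCAAT, the NF-Y motif, in 40% and 37.8%, and TATAAA, the TATA box, in 6.67% and 8.78%. The median GC content was 58.7% in the windows of the family and 59.7% in those of other genes above background.

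**Figure D1:**
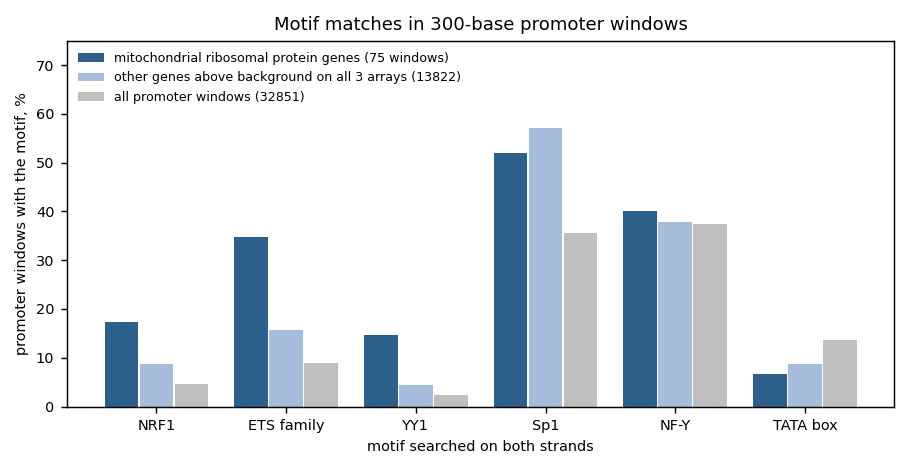
Share of 300-base promoter windows (%) that hold each motif, for the mitochondrial ribosomal protein genes, for other genes above background on all 3 arrays and for all windows. The bars of the family stand above both comparison bars for NRF1 (17.3%), the ETS family (34.7%) and YY1 (14.7%), and below the other expressed genes for Sp1 (52%).

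The YY1 letters lay near the gene start. Of 11 matches, 9 began 8 to 36 bases after the annotated start, and 9 were on the strand of the gene. Each is printed 5′ to 3′ in the direction in which the motif reads, with the matched letters in capitals and flanks of up to 10 bases. In 8 of 11 the open position of the motif was G, and in 7 the match was followed by gc.

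Mrpl27 (chr11:94653789-94653817, + strand): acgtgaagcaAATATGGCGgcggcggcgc
Mrpl35 (chr6:71823743-71823771, - strand): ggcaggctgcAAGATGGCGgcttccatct
Mrpl36 (chr13:73330968-73330996, - strand): gccaggaagaAAGATGGCGtaaggtcacg
Mrpl37 (chr4:107066822-107066850, - strand): tgcacgggcaAAGATGGCGgcgtccaggt
Mrpl42 (chr10:95501904-95501932, - strand): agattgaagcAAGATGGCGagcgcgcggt
Mrpl58 (chr11:115403762-115403790, + strand): ctgggaggtgAACATGGCGaccgcctggg
Mrps11 (chr7:78783013-78783041, - strand): ggaagacagaAAGATGGCGgcgcccgtag
Mrps18a (chr17:46111005-46111033, + strand): ggtgcgttccAAGATGGCGgccctcaggg
Mrps24 (chr11:5707652-5707675, - strand): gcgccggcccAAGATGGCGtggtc
Mrps27 (chr13:99344790-99344818, + strand): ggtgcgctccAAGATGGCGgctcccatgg
Mrps30 (chr13:118387219-118387247, - strand): gcggcgggcgAAAATGGCGgcggccaggt

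ETS and NRF1 matches are shown for some of the genes that stood at the ends of the comparisons below, again with the matched letters in capitals. The ETS matches of Mrpl3, Mrpl22, Mrps18a and Mrps22 began between 11 and 53 bases before the start. Those of Mrps18b and Mrps21, also at an end but not shown here, began 43 and 18 bases after it.

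Mrpl3, ETS (chr9:105053239-105053265, + strand): gagaaacggaCCGGAAGtggcccggct
Mrpl22, ETS (chr11:58171601-58171627, + strand): ttttccggtcCCGGAAGccggcctcgg
Mrps18a, ETS (chr17:46110968-46110994, + strand): cacccctgctCCGGAAGcggaagtgca
Mrps22, ETS (chr9:98601674-98601700, - strand): acctctcgagCCGGAAGttgctctatc
Mrpl9, NRF1 (chr3:94443298-94443327, + strand): aggcgcagctGCGCATGCGCggggtccttc
Mrpl12, NRF1 (chr11:120484546-120484575, - strand): gcggtgcgacGCGCAGGCGCggagacaata
Mrpl39, NRF1 (chr16:84735350-84735379, - strand): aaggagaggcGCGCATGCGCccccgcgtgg
Mrps9, NRF1 (chr1:42851218-42851247, - strand): cctggagactGCGCAGGCGCagacctccca

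A promoter window overlapped that of another gene on the opposite strand in 29 of the 75 windows (38.7%), which belong to 24 genes, against 10.8% of all windows. The share among other genes above background was not counted. Most partners were not of the family, among them Twnk, the mitochondrial DNA helicase, beside Mrpl43, and Sars2, the mitochondrial seryl-tRNA synthetase, beside Mrps12. Mrpl46 and Mrps11 were the only pair within the family, with 41 bases between their starts. The window of Mrps11 (chr7:78782881-78783180, + strand) is printed whole, since it covers both starts and the YY1 match, in capitals, which lay 58 bases inside Mrpl46 on the strand of that gene.

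Mrps11: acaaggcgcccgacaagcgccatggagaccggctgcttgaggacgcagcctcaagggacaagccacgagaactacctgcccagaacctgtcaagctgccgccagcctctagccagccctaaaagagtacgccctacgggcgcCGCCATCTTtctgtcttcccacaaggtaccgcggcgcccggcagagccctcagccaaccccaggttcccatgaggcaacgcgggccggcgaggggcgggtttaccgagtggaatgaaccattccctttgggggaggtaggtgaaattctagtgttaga

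The transcripts were readily detected. Of the 104 probes, 102 were well above background on all 3 arrays (98.1%), against 50.9% of all probes. Of the 78 genes, taken by their brightest probe, 77 were above background on all 3 arrays (98.7%), against 58.9% of all named genes. The exception was Mrpl35, with a single probe at -6.46 in young, -2.74 in aging and -5.99 in suppressed aging blastocysts. Only the aging array held Mrpl35 above background, so its difference is a limit of at least 2.75-fold higher on the aging than on the young array and at least 2.28-fold higher than after suppression. The other probe not above background throughout was the dimmer probe of Mrps14, on the aging array.

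Across the 78 genes the middle of the levels lay at 3.53 in young (quartiles 2.23 and 4.20), 3.45 in aging (2.32 and 4.29) and 3.33 in suppressed aging blastocysts (2.29 and 4.36). The signal was over the 75th percentile of the array for 74, 76 and 77 of the genes. None of the member spots was saturated and none was an outlier.

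**Figure D2:**
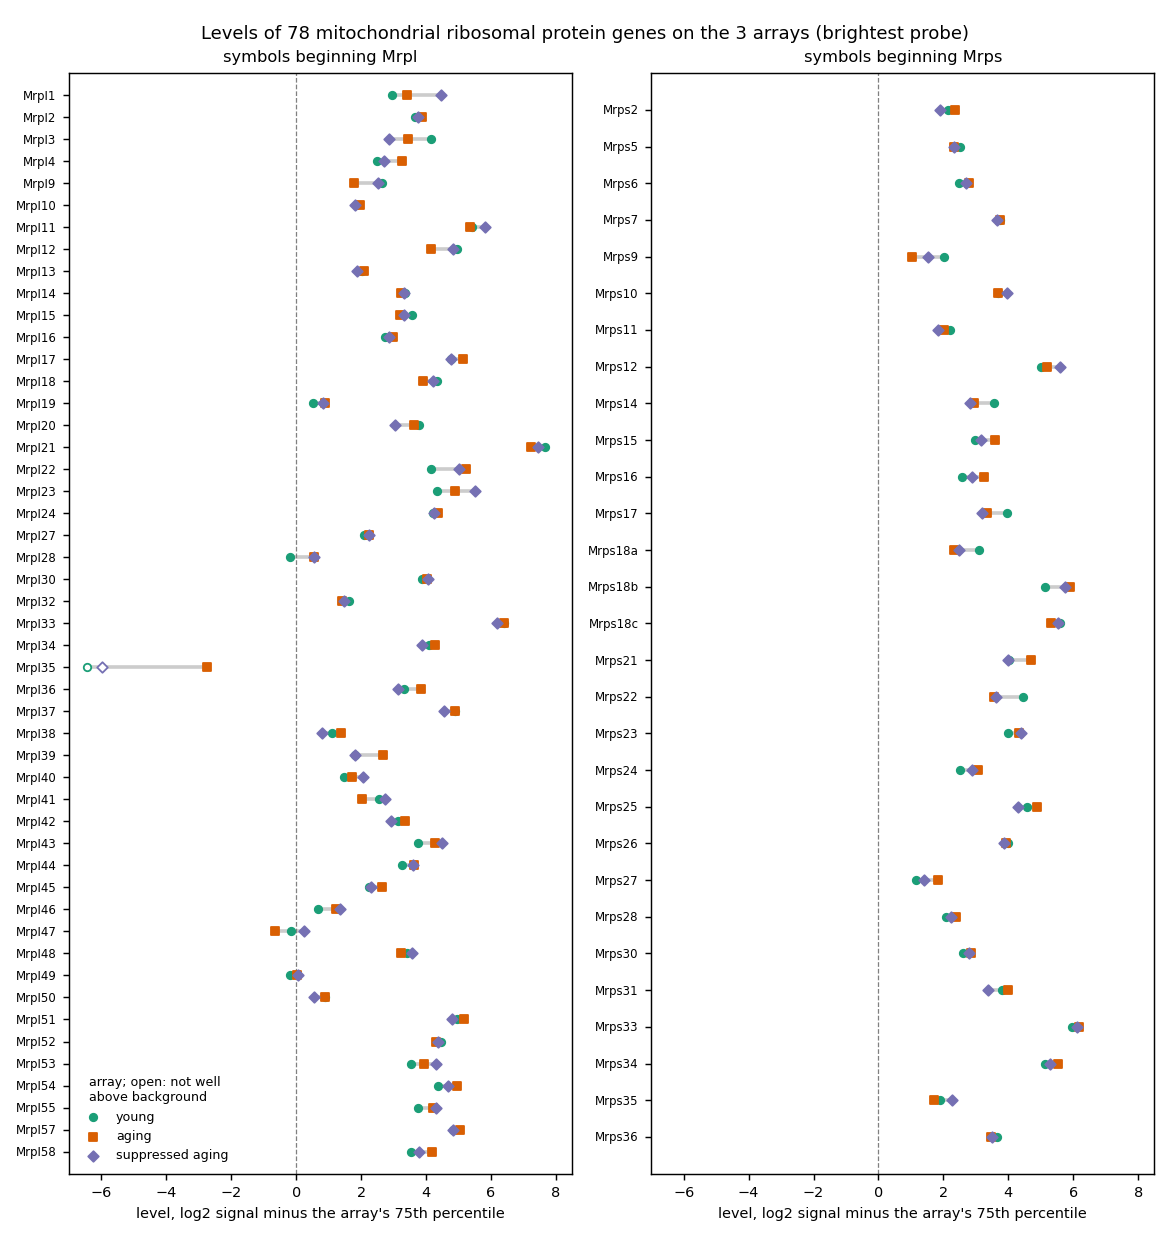
Level of each of the 78 genes (brightest probe; log2 signal minus the array's 75th percentile) on the young, aging and suppressed aging arrays, with genes in the order of their numbers and open symbols where a probe was not well above background. In most rows the 3 symbols lie close together, and Mrpl35, at -6.46, -2.74 and -5.99, is the one gene left of the others.

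The 3 arrays were set against each other gene by gene. The range over the 3 arrays had a median of 0.43 on the log2 scale for the 77 genes above background on all of them, against 0.62 for 13809 named genes and 0.52 for the 7886 of these with a mean level of 0 or above. A range over 1, or 2-fold, was seen for 4 of 77 genes (5.19%), against 26.6% and 17.02%. A range under 0.5 was seen for 41 genes (53.2%), against 39.2% and 47.8%. With normexp background correction, which adds an offset and so shrinks the differences of dim probes, the median range was 0.49 for the family and 0.43 for all genes, in the opposite order, and a range over 1 was seen for 4 of 77 genes (5.19%) and for 10.7% of all genes. The root mean square log2 difference over the family was 0.46 between aging and young, 0.39 from aging to suppressed aging and 0.45 from young to suppressed aging, whereas over all 13809 genes it was 0.78, 0.75 and 0.75. Spots of the same probe on 1 array had a median SD of 0.045 to 0.051, over 268 to 271 repeatedly spotted probes with a level of 0 or above. That SD covers the spotting and the scan only, and the member probes had 1 spot per array.

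The steadiest members were proteins of both subunits. Mrps7, which sits in the head of the small subunit, was at 3.74 in young, 3.76 in aging and 3.66 in suppressed aging blastocysts. Mrps26, a small subunit protein specific to mitochondria, was at 3.98, 3.93 and 3.88 in the same order. Mrpl14 of the large subunit was at 3.35, 3.24 and 3.32. The range of each of these 3 genes was 0.10 to 0.11 over the 3 arrays by the brightest probe. Mrps7 has a second probe, which was at 1.94, 1.71 and 2.15 and so spread wider.

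Aging was compared with young first. Of the 77 genes measured on both arrays, 51 were higher and 26 lower on the aging array (66.2% higher), where 51.9% of all named genes were higher. The median difference was 0.20 on the log2 scale, against 0.02 for all genes. Only 2 of 78 genes (2.56%), Mrpl22 and the limit for Mrpl35, were over 2-fold apart, where 19% of all named genes were, 9.48% of those with a mean level of 0 or above were, and 5.30% of all genes were with normexp, where the family had 1. None of the 77 measured genes was over 5-fold apart, where 2.58% of all genes were, and for Mrpl35 only the limit of at least 2.75-fold is known. The shift toward the aging array was thus small for each gene, and with 1 array per group its error is unknown. In pooled embryos, fewer cells of a type and less RNA per cell cannot be told apart. All 4 inner cell mass markers were also higher on the aging array, by 0.26 (Nanog) to 1.37 (Sox2). Of 6 trophectoderm markers 4 were lower, while the largest difference was that of Elf5, higher by 0.91. The primitive endoderm markers were split, with Gata6 and Pdgfra higher on the aging array by 0.99 and 1.28 and Gata4 and Sox17 at -0.04 and -1.53. Of the oocyte markers compared, Zp3 and Bmp15 were higher there by 2.08 and by at least 2.95, whereas Gdf9 and Nlrp5 differed by -0.06 and -0.30. The blood marker Hba-a1 was higher by 0.91, while Alas2, the other blood marker above background of the 4 listed, differed by -0.77. The part of these markers in the shift was not tested.

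Among large subunit proteins with a bacterial counterpart, 17 genes were higher and 12 lower on the aging array (median 0.16). Mrpl22, which lines the tunnel through which the new peptide leaves, was at 4.16 in young, 5.22 in aging and 5.01 in suppressed aging blastocysts. Its second probe was at 2.63, 3.40 and 3.83, so that the young array was lowest by both probes. Mrpl4, another protein of the tunnel wall, was at 2.48, 3.26 and 2.70, a difference of 0.79 between aging and young. Mrpl28 was at -0.18, 0.55 and 0.55. In the other direction, Mrpl12, a protein of the stalk that translation factors touch, was at 4.96, 4.16 and 4.84, and was lowest on the aging array by 0.80 against young. Mrpl9, which lies near the base of the other stalk, was at 2.64, 1.78 and 2.51 by its brightest probe but at 1.65, 1.58 and 1.69 by its second. The difference of Mrpl9 between aging and young was therefore -0.86 by one probe and -0.07 by the other.

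Of the large subunit proteins specific to mitochondria, 17 genes were higher and 4 lower on the aging array (median 0.26). Mrpl39 was at 1.80 in young, 2.67 in aging and 1.79 in suppressed aging blastocysts, and stood out on the aging array alone. Mrpl58, a peptidyl-tRNA hydrolase that rescues stalled ribosomes and is built into the subunit, was higher by 0.62 and 0.28 on its 2 probes. Mrps30, a large subunit protein despite its symbol, was at 2.61, 2.86 and 2.78.

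Small subunit proteins with a bacterial counterpart were split 10 higher and 6 lower (median 0.10), and those specific to mitochondria 7 higher and 3 lower (median 0.25). Mrps21 was at 4.01 in young, 4.69 in aging and 3.98 in suppressed aging blastocysts. A second probe of Mrps21 gave 2.86, 3.61 and 3.08, with the aging array again highest. Mrps22, a mitochondria-specific protein whose loss causes a mitochondrial disease, was at 4.45, 3.55 and 3.63, lower by 0.89 on the aging array, and its second probe was at -0.42, -0.76 and 0.18. Mrps9, in the head of the small subunit, had the lowest difference of the family by its brightest probe, at 2.03, 1.04 and 1.53. Its second probe was at -0.88, -0.84 and -0.38, so the difference between aging and young was -0.99 by one probe and 0.04 by the other.

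Some proteins at known working sites of the ribosome are given as well, and they were picked with their values in view. Mrps12, at the decoding centre, was at 5.01 in young, 5.19 in aging and 5.59 in suppressed aging blastocysts. Mrpl11, at the site where GTP-hydrolysing factors dock, was at 5.41, 5.34 and 5.83. The suppressed aging array was the highest for both, by no more than 0.58. Mrpl45, which anchors the ribosome to the inner membrane, was at 2.26, 2.65 and 2.32, and Mrpl44, a protein with a ribonuclease III fold, at 3.27, 3.63 and 3.59. A second probe of Mrpl44 was at 0.38, 1.22 and 1.30, so the young array was the lowest by both probes. Mrps27, which carries RNA-binding repeats, was at 1.16, 1.82 and 1.39, and the aging array was the highest for it as for Mrpl45.

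Mouse has 3 paralogs related to bacterial ribosomal protein S18, which take different places in the ribosome, and their differences did not share a direction. Mrps18b, in the small subunit, was higher on the aging than on the young array by 0.76, 0.88 and 0.46 on its 3 probes. Mrps18c, which takes the place of the bacterial protein in the small subunit, was lower by 0.29 and 0.28 on its 2 probes. Mrps18a, which is found in the large subunit, was lower by 0.77, with levels of 3.11 in young, 2.33 in aging and 2.49 in suppressed aging blastocysts. Mrps36 was at 3.65, 3.46 and 3.50.

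**Figure D3:**
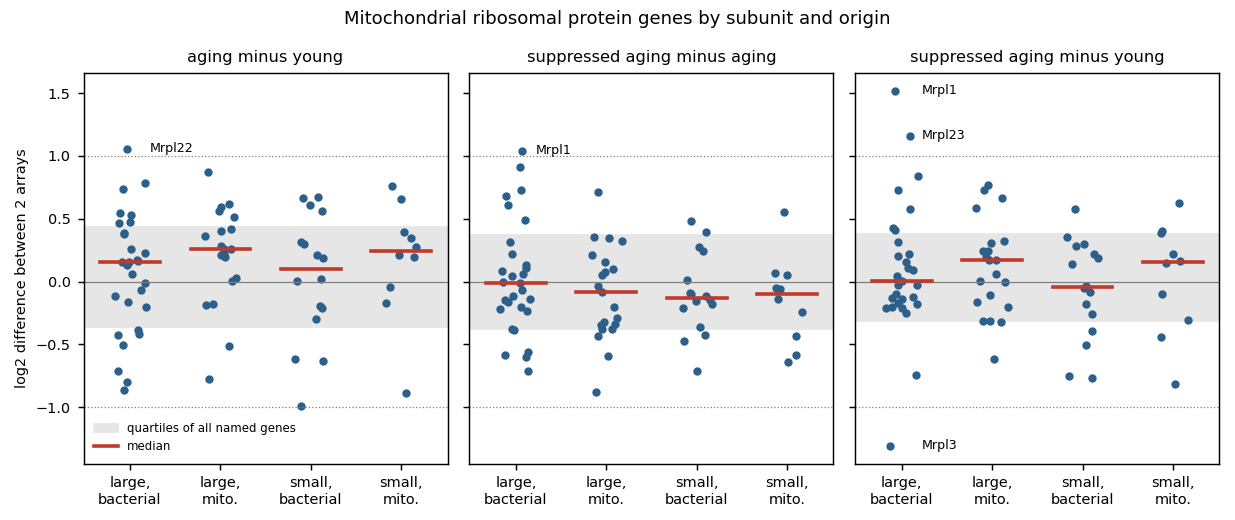
Log2 difference of each gene (point) in the 3 comparisons, by subunit and by whether the protein has a bacterial counterpart, with the group median as a red line, dotted lines at 2-fold and a grey band for the quartiles of all named genes. Nearly all points lie within 2-fold, and the medians for aging minus young are 0.16, 0.26, 0.10 and 0.25 from left to right.

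The question of whether blocking CXCL5 and CXCR2 in culture went with a change in these transcripts was addressed by the suppressed aging and aging arrays. Of 77 genes, 31 were higher and 46 lower on the suppressed aging array (40.3% higher), where 50.4% of all named genes were higher. With the scaling of the authors' table the split was 21 higher and 56 lower (27.3% higher, against 43% of all genes). The median was -0.09, against 0.00 for all genes. Over 2-fold apart were 2 of 78 genes, Mrpl1 higher and Mrpl35 lower, where 17.3% of all named genes were, 7.65% of those with a mean level of 0 or above were, and 4.74% of all genes were with normexp, where the family had 1. Mrpl1 was under 2-fold by its brightest probe with quantile normalization (0.98) and with the authors' table (0.95). By the brightest probe, none of the 77 measured genes was over 5-fold apart, where 2.29% of all genes were. For Mrpl35 only the limit of at least 2.28-fold is known. Dimmer probes of Mrps14 and Mrpl27 were higher on the suppressed aging than on the aging array, by at least 5.84-fold and by 2.09-fold. The 4 inner cell mass markers were all lower on the suppressed aging array, by 0.02 (Pou5f1) to 0.80 (Klf4). Of 6 trophectoderm markers 5 were higher (median 0.18), and Elf5 differed by -0.58. Of the primitive endoderm markers, Sox17 was higher by 0.89, and Gata6, Pdgfra and Gata4 differed by -0.77, -0.71 and -0.02. Hba-a1 differed by -1.69, Bmp15 by -2.20 and Gdf9, not above background on the suppressed aging array, by a limit of -1.88. Of the other oocyte markers compared, Zp3 differed by -0.55 and Nlrp5 by 0.21. The part of these markers in the shift was not tested. This comparison shares the aging array with the one before it, so a gene that was high on that array alone is higher in the first and lower in the second by construction.

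The aging array was the highest of the 3 for 39 of 77 genes (50.6%), where it was highest for 35.8% of all named genes, and the lowest for 19 (24.7%, against 33.9%). Mrpl39, Mrps21, Mrpl36 and Mrpl4 had this profile, with Mrpl36 of the large subunit at 3.32 in young, 3.86 in aging and 3.14 in suppressed aging blastocysts. Mrpl12, Mrpl9 and Mrpl41 had the opposite one, with Mrpl41 at 2.54, 2.03 and 2.74. Mrpl47, which lies at the exit of the peptide tunnel, was at -0.16, -0.66 and 0.25. For Mrps31 and Mrpl38, both specific to mitochondria, the suppressed aging array was the lowest, by 0.64 and 0.60 against the aging array. A second probe of Mrpl38 went the other way, by 0.15.

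Mrpl1, the protein of the stalk beside the site where spent tRNA leaves, stood apart from the rest of the family. Its brightest probe was at 2.95 in young, 3.42 in aging and 4.46 in suppressed aging blastocysts. A second probe, made for another RefSeq transcript of the gene, was at 0.15, 0.57 and 2.36. Both probes gave the same order of the 3 arrays, with the suppressed aging array highest. The suppressed aging array was 2.06-fold above aging by the first probe and 3.45-fold by the second, and 2.86-fold and 4.63-fold above young. The promoter window of Mrpl1 (chr5:96209865-96210164, + strand) held none of the NRF1, ETS or YY1 letters and is printed whole for comparison with the matches above.

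Mrpl1: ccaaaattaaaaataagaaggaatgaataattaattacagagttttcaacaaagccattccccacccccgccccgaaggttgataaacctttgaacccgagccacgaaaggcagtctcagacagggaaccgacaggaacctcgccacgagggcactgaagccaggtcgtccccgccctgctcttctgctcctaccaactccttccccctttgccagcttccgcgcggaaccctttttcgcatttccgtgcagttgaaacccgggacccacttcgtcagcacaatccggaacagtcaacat

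Suppressed aging was last set against young, a comparison that shares an array with each of the other 2. Here 41 genes were higher and 36 lower (53.2% higher, against 53.5% of all named genes), and the median was 0.04 for the family and for all genes. Over 2-fold apart were 3 of 77 genes, where 16.3% of all named genes were and 8.49% of those with a mean level of 0 or above. With normexp the family again had 3, and the share of all genes was 4.62%. None was over 5-fold apart, where 2.43% of all genes were. Besides Mrpl1 these were Mrpl23 and Mrpl3. Mrpl23, a protein at the rim of the tunnel exit, was at 4.33 in young, 4.88 in aging and 5.49 in suppressed aging blastocysts, 2.23-fold higher on the last than on the first. Mrpl3, which reaches toward the peptidyl transferase centre, was at 4.15, 3.44 and 2.84, 2.48-fold lower. Both genes had 1 probe, and for both the aging array lay between the other 2.

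Of the remaining genes at the upper end of this comparison, Mrpl22 was higher by 0.84, Mrpl53 by 0.77, and Mrpl43 and Mrpl28 by 0.73 each. At the lower end, Mrps22 differed by -0.82, Mrps17 by -0.76, Mrps14 by -0.75, Mrpl20 by -0.74 and Mrps18a by -0.62. For 3 of these the second probe went the other way, by 0.59 for Mrps22, 0.52 for Mrps17 and 1.99 for Mrps14. The 2 probes of Mrps14 were at 3.56 and -3.76 in young, 2.93 and -6.47 in aging and 2.81 and -1.77 in suppressed aging blastocysts, and the mean over both turned the difference to 0.62.

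Mrpl46 and Mrps11, whose starts lie 41 bases apart, differed in opposite directions between aging and young. Mrpl46 was at 0.67 in young, 1.23 in aging and 1.33 in suppressed aging blastocysts. Mrps11 was at 2.22, 2.00 and 1.83. The young array was thus the lowest for one and the highest for the other.

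Genes with and without the motifs were set side by side. Between aging and young, the median was 0.19 both for the 41 measured genes with NRF1, ETS or YY1 letters and for the 27 without. For YY1 alone it was 0.24 over 10 genes with the letters and 0.18 over 58 without. Between suppressed aging and aging, the YY1 medians were -0.28 and -0.02, with 1 of 10 genes higher among those with the letters and 28 of 58 among those without. For NRF1 these medians were -0.04 and -0.09 and for the ETS family -0.05 and -0.09, in the opposite order. These medians are a description of 3 arrays, and the letters are not evidence of binding.

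Agreement between probes of a gene shows how far a difference belongs to the transcript rather than to 1 probe. A second probe was present for 23 of the 78 genes, of which 3 (Mrpl27, Mrps18b and Mrps33) had 3 probes, and 5 genes had probes for more than 1 RefSeq transcript. Between aging and young, the brightest and second probes went the same way for 15 of 22 genes (68.2%), where 56.7% of all named genes with 2 such probes did. Between suppressed aging and aging they did so for 14 of 22 (63.6%, against 54.8%), and between suppressed aging and young for 12 of 23 (52.2%, against 56.1%). Pearson's r between the 2 probes was 0.58, 0.61 and 0.28 in the family, across genes that share the arrays. Over all named genes with 2 such probes it was 0.16, 0.11 and 0.13. Mrpl1 was the highest of the family by both probes against aging (1.04 and 1.79) and against young (1.52 and 2.21) on the suppressed aging array. The values of 0.61 and 0.28 may therefore rest on Mrpl1, and r without that gene was not computed. The median gap between the probes was 0.29, 0.24 and 0.32 in the family, against 0.54, 0.53 and 0.48. These gaps were similar in size to the differences themselves, which had a median size of 0.31, 0.24 and 0.22. The genes compared were not matched to the family for level, and the part of signal level in the agreement was not tested.

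Mrpl1 was the only gene of the family with both probes over 2-fold apart in the same direction, in both comparisons that involve the suppressed aging array, and against aging this did not hold with quantile normalization or the authors' table. In the comparison of aging with young, no gene had both probes over 2-fold apart. All probes of a gene went the same way for 14 genes in the first comparison, 14 in the second and 10 in the third. Mrpl21 had well matched probes, at 7.67, 7.24 and 7.46 for the brightest and at 5.60, 5.40 and 5.46 for the second. Mrps33 did not, since 1 of its 3 probes was lower on the aging than on the young array by 0.81 while the other probes were higher by 0.21 and 0.44.

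**Figure D4:**
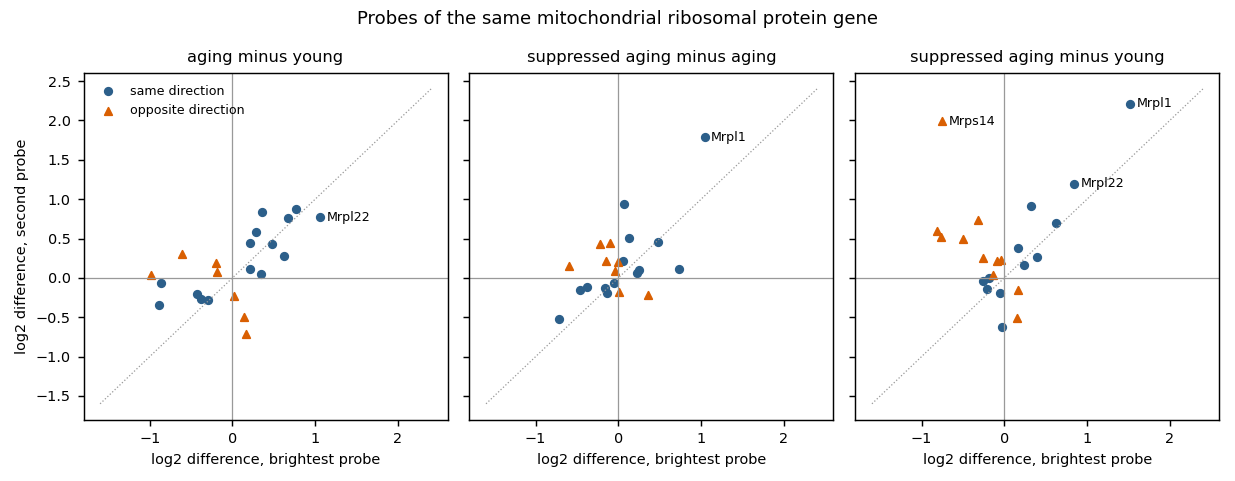
Log2 difference by the brightest probe (x axis) and by the second probe (y axis) for each gene with at least 2 comparable probes, in the 3 comparisons, with a dotted line where both are equal. Pearson's r is 0.58 for aging minus young, 0.61 for suppressed aging minus aging and 0.28 for suppressed aging minus young. Mrpl1 is the highest by both probes in the latter 2 panels, and r without it was not computed. For suppressed aging minus young, Mrps14 is at -0.75 by its brightest probe and 1.99 by its dimmer probe.

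Other genes of the pathway were read from 4 lists. The 5 ribosomal subunits with other symbols (Dap3, Ptcd3, Chchd1, Aurkaip1 and Gadd45gip1) were all higher on the aging than on the young array, by a median of 0.38, and 4 of 5 were lower on the suppressed aging than on the aging array. Gadd45gip1, a large subunit protein, was at 3.17, 4.24 and 3.78. Of 20 measured ribosome assembly factors, 14 were higher on the aging array (median 0.38), and the GTPase Mtg1 was highest there, at -0.48, 0.69 and -0.84. In the other direction, Mrm2 differed by -1.41 between aging and young. Ybey, not above background on the aging array, differed by a limit of -1.33.

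Mitochondrial translation factors lay on the other side. Of 15, 11 were lower on the aging than on the young array (median -0.37), and 11 were lower on the suppressed aging than on the young array (median -0.30). Gfm1, the elongation factor that moves the ribosome along the messenger RNA, was at 3.57, 2.28 and 2.10, and Gfm2, a related factor for ribosome recycling, at 1.57, 0.56 and 0.38. Mtfmt went the other way, higher on the aging than on the young array by 1.14. Of 17 mitochondrial aminoacyl-tRNA synthetases, 11 were lower on the aging array (median -0.18). The largest difference of that list was in the other direction, for Mars2, which was at -3.30, -0.95 and -0.49 and so over 5-fold higher on the aging array. Over 2-fold apart between aging and young were 4 of 15 translation factors, 3 of 21 assembly factors and 3 of 17 synthetases, beside 2 of 78 ribosomal proteins and 19% of all named genes.

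The respiratory chain and the cytosolic ribosome, the families that the mitochondrial ribosome serves and resembles, had smaller median sizes of difference between aging and young. Over 86 cytosolic ribosomal protein genes the median between aging and young was -0.01 and the median size of a difference 0.15, and over 79 nuclear respiratory chain genes these were 0.03 and 0.24. For the mitochondrial ribosomal proteins they were 0.20 and 0.31. The shares over 2-fold apart were alike, at 2 of 86 cytosolic ribosomal genes (2.33%), 2 of 80 respiratory chain genes (2.5%) and 2 of 78 of the family (2.56%). The cytosolic genes were Rpl37, not above background on the suppressed aging array, and Rps23rg1, a retrogene taken in by its symbol. The lowest measured differences were -1.49, -1.86 and -0.99 for the cytosolic ribosome, the respiratory chain and the family. Over 5-fold apart was 1 respiratory chain gene, Cox7b2, by a limit, as it was not above background on the young array. Between suppressed aging and young the medians were 0.05, 0.06 and 0.04. With 1 array for each group none of these contrasts between families can be tested.

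**Figure D5:**
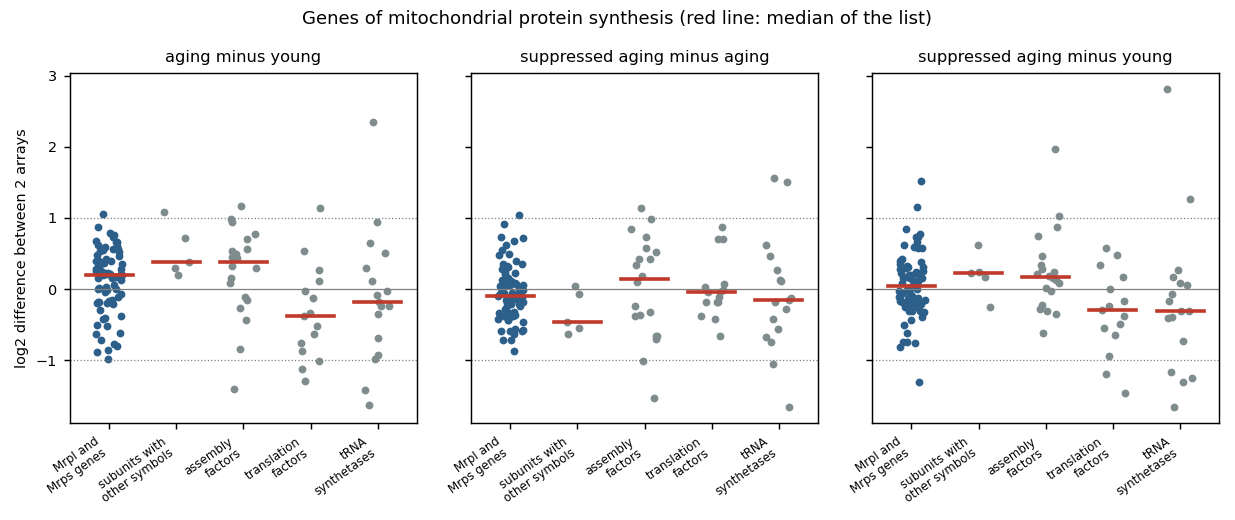
Log2 difference of each measured gene (point) of 5 lists of mitochondrial protein synthesis in the 3 comparisons, with red lines at the list medians and dotted lines at 2-fold. Between aging and young the medians are 0.20 for the Mrpl and Mrps genes, 0.38 for subunits with other symbols, 0.38 for assembly factors, -0.37 for translation factors and -0.18 for tRNA synthetases.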

How the data were processed

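RNA from 3 pools of blastocysts was hybridized to 1-color (Cy3) Agilent SurePrint G3 mouse arrays, 1 for each group. The methods name amplification by a global PCR, whereas the labels name a kit that labels cRNA, and the files do not settle which was used. Spot intensity was deposited by the authors as the scanner gave it, background-subtracted with Feature Extraction 12.0.3.1, and a table that equals this intensity times 1 factor per array (3.46, 3.34 and 3.96). Control and outlier spots were left out, log2 intensity was averaged over the spots of a probe and scaled to the 75th percentile of its array. A probe above background on 1 array of a comparison gave a limit, and a probe above background on neither gave no difference. Genes were named by matching RefSeq accessions to a GRCm38.p6 gene table, and each was represented by its brightest probe. The array design is on an older build, so coordinates are given only for promoter windows. Symbols beginning Rps6k and Rps19bp1 were left out of the cytosolic ribosome, whereas the retrogene Rps23rg1 was not. With 1 array per group no test was made. Thresholds were 2-fold and 5-fold.

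Named genes were the 6 highest and 6 lowest per comparison, genes over 5-fold apart, both-probe calls, Mrpl35, the Mrps18 paralogs, Mrps30 and Mrps36. Further genes, such as Mrps7, Mrps26, Mrpl14, Mrpl21, Mrps33, Mrpl46, Mrps11, Mrps12, Mrpl11, Mrpl44, Mrpl45, Mrps27 and Mrpl58, were chosen after their values or windows were seen. Members and lists were chosen with earlier results of these data known. Alternatives were quantile normalization, background correction by normexp in limma 3.58.1 with an offset of 50, another centring, the authors' table, outlier spots kept, other filters and the mean over probes. The second background, genes with a mean level of 0 or above, and the range over arrays under the alternatives were added after seeing the data. Scripts were tested on simulated data. Tools were Python 3.11.15, NumPy 2.4.6, pandas 2.3.3, Matplotlib 3.10.9 and R 4.3.3. The number of arrays limits the precision.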

Additional observations from a re-analysis of the deposited data

How the results depend on the processing

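No paired analysis was possible because there was 1 array per group, and no replicate could be left out. Relative to the median of all genes, the median difference of the family was 0.17 for aging minus young, -0.10 for suppressed aging minus aging and -0.0017 for suppressed aging minus young. With normexp background correction the latter 2 moved to -0.17 and -0.090, and without a filter on dim probes the first and second moved to 0.31 and -0.23. The number of genes over 2-fold apart was 1 instead of 2 between aging and young with normexp, with probes above background on all 3 arrays only and with the mean over probes, and 1 between suppressed aging and aging with normexp, quantile normalization, the authors' table and probes above background on all 3 arrays only. Mrpl35, above background on 1 array, was lost with normexp and with probes above background on all 3 arrays only, Mrpl22 between aging and young with the mean over probes, and Mrpl1 between suppressed aging and aging with quantile normalization and the authors' table. The number was 3 between aging and young with quantile normalization (Mrps9 added) and 4 instead of 3 between suppressed aging and young with the mean over probes (Mrpl22 added). The relative median kept its sign in the first and second comparison, and in the third, near 0, it was 0.024 with the mean over probes. With normexp the share of all genes over 2-fold apart was 5.30%, 4.74% and 4.62%. Of 398 values of named genes under an alternative, 395 kept their direction. The 3 others were Mrps36 between suppressed aging and aging, at -0.02 with quantile normalization and -0.05 with the authors' table instead of 0.04, and Mrps14 between suppressed aging and young, at 0.62 with the mean over probes instead of -0.75.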
